A study of Mus musculus with 6 samples.

Results

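The 10 genes described here are the core of the Notch pathway: the 4 receptors Notch1, Notch2, Notch3 and Notch4, the ligands Jag1, Jag2, Dll1 and Dll4, and the target genes Hes1 and Hey1. They were chosen by symbol from the 34590 gene symbols in the deposited read counts, and all 10 were found and had enough reads to be tested. In Adamts18-/- transplants, transcripts of the ligands Jag2 and Dll1 and of the target Hey1 fell, by 0.38, 0.52 and 0.79 on the log2 scale, and were lower than in the contralateral WT gland in each of the 3 host mice. These were the members past the thresholds of the study, a fold change under 0.8 (lower) or above its reciprocal (higher) with an unadjusted p under 0.05, and only genes past them are said here to be called. With this scaling to all genes none of the 4 receptors was called, and no member was called higher. Of all 17345 genes tested, 1.84% were called lower and 1.17% higher. In the same comparison 8 of 10 myoepithelial and 7 of 24 pan-epithelial marker genes were called lower when all genes set the scale. Scaling to either list moved the median of all genes up, by 0.47 and 0.45 on the log2 scale, and then no member was called lower, while 3 were called higher with the myoepithelial scaling. With the myoepithelial scaling 11059 of the 17345 genes tested had an unadjusted edgeR p under 0.05. With scaling to all genes, 0 genes of the whole table had an adjusted p under 0.05 in edgeR, where 670 had an unadjusted p under 0.05. In DESeq2 71 passed by adjusted p, Hey1 among them.

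Notch receptors are cell-surface proteins that are activated by ligands on the neighboring cell. Ligand binding exposes the receptor to cleavage, and its intracellular part moves to the nucleus, where it joins the DNA-binding protein Rbpj and switches on genes of the Hes and Hey families, which encode transcriptional repressors. In the mammary gland the pathway is known for its role in luminal cell fate and in the communication between the basal and luminal layers of the ducts, and in the surrounding stroma it is known for shaping blood vessels and their mural cells.

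RNA-seq was performed on 3 pairs of contralateral inguinal glands (gland number 4) of 3 WT host mice. In each host the left fat pad, cleared of its own epithelium, was engrafted with WT.EGFP+ epithelium and the right one with Adamts18-/-.EGFP+ epithelium, so that all 6 grafts carried the EGFP transgene, which is driven by the chicken beta-actin promoter, and only the grafted epithelium lacked Adamts18, the gene of a secreted metalloprotease. The fat pad, vessels and immune cells came from the WT host in both groups. Every WT graft was on the left side, and genotype and side cannot be told apart. The labels give neither the age of the hosts nor the time from grafting to harvest. They describe the RNA as coming from sorted GFP+ mammary epithelial cells, whereas the study's text speaks of profiled glands. Numbers 1 to 3 name the host mouse, and the study describes the pairs as independent experiments, each with its own donor of epithelium.

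Total counts were between 53875123 and 71595924 per library, and 3 counts corresponded to 0.043 to 0.0574 CPM, the unit used throughout, which divides a count by the library total after adjustment by the trimmed mean of M-values (TMM). Adamts18 counted 3.61, 9.92 and 6.80 CPM in WT glands (mice 1, 2 and 3) and 2.75, 4.87 and 3.29 CPM in their Adamts18-/- glands, a log2 fold change of -0.83 ± 0.19 (SE, unadjusted edgeR p of 0.00922). Since the count covers the whole gene it includes any transcript of the mutant allele. The study also detected Adamts18 transcripts by RT-PCR in WT fat pads that carried Adamts18-/- epithelium, and ascribed them to the stroma. The part of each source was not tested. Both glands of mouse 3 stood apart on the first principal component, which held 60.4% of the variance, at -41.6 and -87.2 against 20.9 to 42 for the other 4 libraries. The libraries were not purely epithelial: the 24 pan-epithelial genes summed to 1330 to 2680 CPM, the 7 adipocyte genes to 7080 to 22200 CPM and the 16 endothelial genes to 984 to 1910 CPM. Paired glands differed in other cell types. The 8 skeletal muscle genes summed to 288 and 846 CPM in the WT glands of mice 1 and 2, against 11100 and 10900 CPM in their Adamts18-/- glands. In mouse 3 the B cell sum was 143 against 685 CPM and the T cell sum 159 against 416 CPM. The part of these cells in the members' differences was not tested. In such bulk samples, fewer cells of a type and less RNA per cell cannot be told apart.

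Levels of the 10 genes were compared per kilobase of annotated exon, averaged over the 6 libraries. Hes1 was the most abundant per length, at 17.3 ± 3.14 CPM per kb (SD, n = 6), followed by Notch3 at 16.9 ± 3.34, Jag1 at 14.5 ± 1.96, Notch2 at 14.4 ± 1.34 and Notch1 at 11.6 ± 1.90 CPM per kb. Lower levels were found for Hey1 at 8.13 ± 3.91, Dll1 at 7.59 ± 3.72, Jag2 at 5.67 ± 2.07, Dll4 at 4.92 ± 1.01 and Notch4 at 4.81 ± 1.59 CPM per kb. On this scale Hes1 lay at the percentile 82.2 of 15441 genes and Notch4 at 49.3, so that all 10 genes were within the middle and upper ranges of expression. Neighbors in this order were often not distinct: the mean log2 gap between Jag1 and Notch2 was 0.00 with an SD of 0.25, between Hes1 and Notch3 it was 0.04 with an SD of 0.22, between Hey1 and Dll1 it was 0.04 with an SD of 0.55, and between Dll4 and Notch4 it was 0.07 with an SD of 0.24. Notch3 lay above Jag1, Notch1 above Hey1 and Dll1 above Jag2 in all 6 libraries.

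Notch3 made up the largest share of the summed receptor level per length in 5 of the 6 libraries. Its share was 36.9%, 38.4% and 35.9% in WT glands (mice 1, 2 and 3) and 34.0%, 35.4% and 30.1% in the Adamts18-/- glands. Notch2 held 30.1%, 22.9% and 32.2% in WT and 33.6%, 27.4% and 38.0% in Adamts18-/- glands, and was the largest in the Adamts18-/- gland of mouse 3. In each mouse the share of Notch3 was smaller and that of Notch2 larger in the Adamts18-/- gland, though the ranges of both groups overlapped for Notch2 and not for Notch3. Notch1 stayed between 23.2% and 26.7%, and Notch4, a receptor known from endothelium, between 7.36% and 12.7%. These shares are descriptions and were not tested.

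Among the ligands, Jag1 held the largest share per length in every library, from 34.8% in the WT gland of mouse 2 to 50.6% in the Adamts18-/- gland of mouse 1. The share of Dll1 was 19.1%, 33.1% and 22% in WT and 18%, 22% and 20.3% in Adamts18-/- glands, so the WT gland of mouse 2 stood apart. The summed level of the 4 receptors was 1.57, 1.21 and 1.45 times that of the 4 ligands in WT glands and 1.63, 1.38 and 1.73 times in Adamts18-/- glands, larger in the Adamts18-/- gland of every mouse. This ratio was not tested either.

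**Figure D1:**
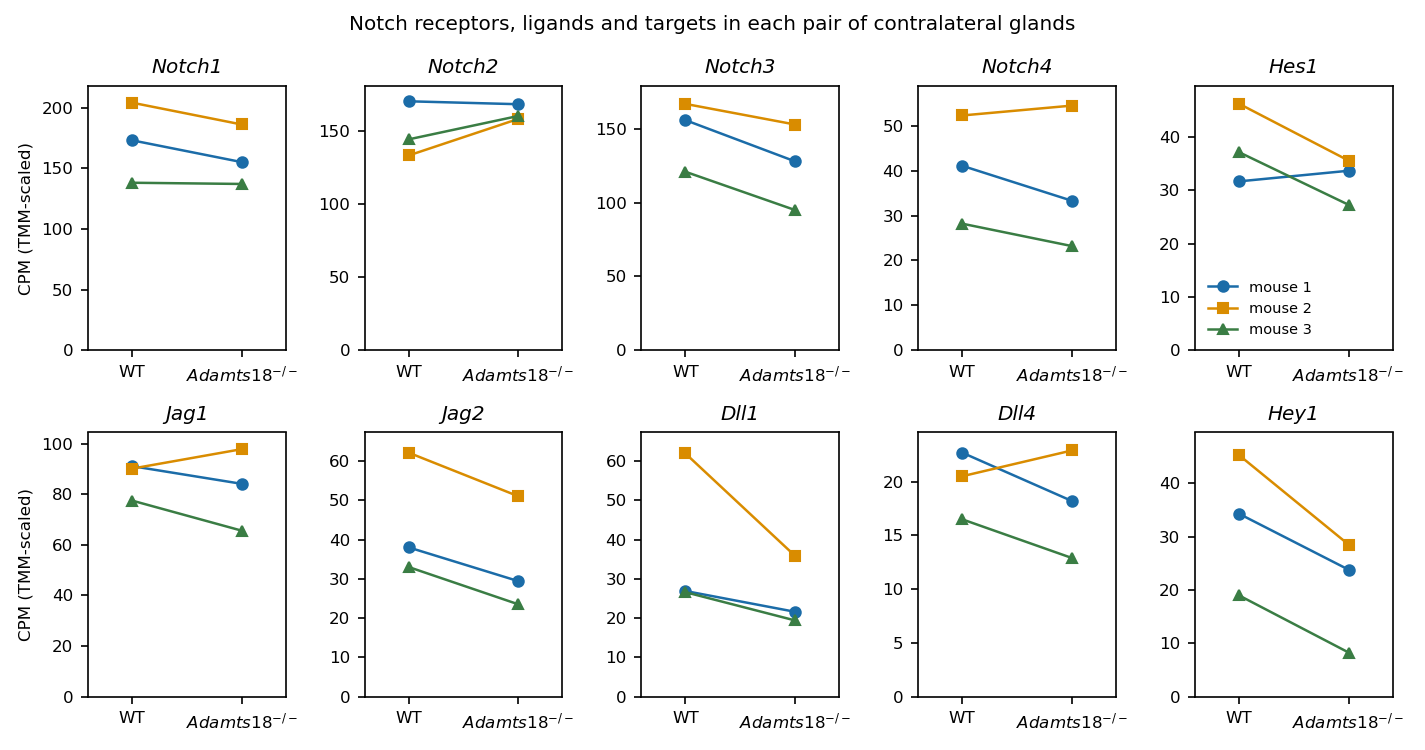
Each panel plots 1 gene, with the TMM-scaled CPM on a vertical axis that starts at 0 and genotype on the horizontal axis; points are libraries and lines join the contralateral glands of a host mouse. The lines of Notch1, Notch3, Jag2, Dll1 and Hey1 go down in all 3 mice, while WT and Adamts18-/- values overlap for all 10 genes.

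Receptors were compared first between the genotypes. Notch1, the receptor of luminal progenitor cells among others, counted 173, 204 and 138 CPM in WT glands (mice 1, 2 and 3) and 155, 186 and 137 CPM in the Adamts18-/- glands. The values followed the mouse, with mouse 2 highest and mouse 3 lowest in both genotypes, and the groups overlapped. The fitted log2 fold change was -0.10 ± 0.07 (SE, unadjusted edgeR p of 0.235).

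Notch2, a broadly expressed receptor, counted 170, 133 and 144 CPM in WT glands and 168, 158 and 160 CPM in Adamts18-/- glands. It was the 1 member with a positive fold change, 0.13 ± 0.08 on the log2 scale (unadjusted edgeR p of 0.195), with a higher value in the Adamts18-/- gland of mice 2 and 3 and a nearly equal one in mouse 1. Its Adamts18-/- values were close together, with a mean of 162 ± 5.55 CPM against 149 ± 19.1 CPM in WT (SD, n = 3).

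Notch3, known from luminal progenitors and from vascular mural cells, counted 156, 167 and 121 CPM in WT and 128, 153 and 95.0 CPM in Adamts18-/- glands. It was lower in the Adamts18-/- gland of every mouse, and the groups overlapped. Its log2 fold change of -0.26 ± 0.08 had an unadjusted edgeR p of 0.0243, but the fold change of 0.838 did not reach the fold threshold of 0.8 used by the study, so Notch3 was not called. With mouse 1, 2 or 3 left out its log2 fold change was -0.24, -0.32 and -0.20, with an unadjusted p of 0.169, 0.0285 and 0.0705.

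Notch4 counted 41.1, 52.3 and 28.2 CPM in WT and 33.3, 54.5 and 23.2 CPM in Adamts18-/- glands. The direction differed between mice, lower in mice 1 and 3 and slightly higher in mouse 2, and the fold change was -0.18 ± 0.10 on the log2 scale (unadjusted edgeR p of 0.153). The mouse accounted for 92.7% of the variance of its log2 CPM and the genotype for 3.84%.

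Of the 4 ligands, Jag1, which also signals in vessels and epithelia, counted 91.1, 90.1 and 77.5 CPM in WT and 84.1, 97.8 and 65.6 CPM in Adamts18-/- glands. The WT values lay inside the range of the Adamts18-/- values, with a log2 fold change of -0.08 ± 0.09 (unadjusted edgeR p of 0.435). Without mouse 3 the fold change had the opposite sign, at 0.01.

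Jag2, a ligand of the Jagged family (chromosome 12: 112907819 to 112929776, minus strand, GRCm38), counted 38.0, 62.1 and 33.0 CPM in WT glands (mice 1, 2 and 3), and 29.4, 51.0 and 23.5 CPM in their Adamts18-/- glands. The groups overlapped because both glands of mouse 2 were high, yet the Adamts18-/- value was the lower of each pair, by 0.37, 0.28 and 0.49 on the log2 scale. The means were 44.4 ± 15.6 CPM in WT and 34.6 ± 14.4 CPM in Adamts18-/- glands (SD, n = 3). Jag2 was called lower, with a fold change of 0.768, a log2 fold change of -0.38 ± 0.08 and an unadjusted edgeR p of 0.00526. Without mouse 3 its log2 fold change was -0.32 (unadjusted p of 0.0073), which is short of the fold threshold, and without the mouse as a block its p was 0.369.

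Dll1, a Delta-like ligand known in the mammary gland from basal, stem cell-enriched cells, counted 26.9, 61.9 and 26.6 CPM in WT and 21.6, 35.8 and 19.4 CPM in Adamts18-/- glands. The WT gland of mouse 2 was the highest of all 6, and the Adamts18-/- gland of that mouse was above the other WT glands, so the groups overlapped. Within the pairs the Adamts18-/- value was lower by 0.32, 0.79 and 0.46 on the log2 scale. The means were 38.5 ± 20.3 CPM in WT and 25.6 ± 8.92 CPM in Adamts18-/- glands (SD, n = 3). Dll1 was called lower, with a fold change of 0.696, a log2 fold change of -0.52 ± 0.11 and an unadjusted edgeR p of 0.00729. It was also called with each mouse left out in turn, at -0.63 without mouse 1, -0.39 without mouse 2 and -0.55 without mouse 3, and without the mouse as a block its p was 0.213.

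Dll1 (chromosome 17: 15367354 to 15376872, minus strand, GRCm38) shares 20.55% of its exon bases with A930024N18Rik, a noncoding gene on the opposite strand. Whether the counting used strand is not given in the sources used here. A930024N18Rik itself had few reads, 0.675 to 1.16 CPM per library, with a log2 fold change of 0.04 (unadjusted edgeR p of 0.848). Notch1 shares 7.5% of its exon bases with 0610009E02Rik and 2.91% with Gm13568, and Notch3 and Dll4 share 6.03% and 5.56% with a neighbor, all on the opposite strand. Notch2 shares 5.02% with a neighbor on the same strand. Jag1, Jag2, Notch4, Hes1 and Hey1 share none.

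Dll4, the Delta-like ligand of vascular tip cells, was the least abundant ligand per length, with 22.7, 20.5 and 16.5 CPM in WT and 18.2, 22.9 and 12.9 CPM in Adamts18-/- glands. It was lower in mice 1 and 3 and higher in mouse 2, and the fold change of -0.17 ± 0.14 on the log2 scale was not called (unadjusted edgeR p of 0.267). It was thus lower in the same mice as Notch4 and as Jag1. In these mice the summed endothelial, pericyte, adipocyte and Schwann cell markers were lower, too.

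The stretches before the start sites of Dll1 and Dll4 are shown to set a Delta-like ligand that fell beside one that was not called. They are the 250 bases upstream of the transcription start in RefSeq (GRCm38.p6), Dll1 from chr17:15376933-15377182 on the minus strand and Dll4 from chr2:119325534-119325783 on the plus strand. Capitals mark matches to CACGCG or CACNAG, searched on both strands. Each is known as a site of Hes or Hey repressors, not necessarily of both families.
Dll1: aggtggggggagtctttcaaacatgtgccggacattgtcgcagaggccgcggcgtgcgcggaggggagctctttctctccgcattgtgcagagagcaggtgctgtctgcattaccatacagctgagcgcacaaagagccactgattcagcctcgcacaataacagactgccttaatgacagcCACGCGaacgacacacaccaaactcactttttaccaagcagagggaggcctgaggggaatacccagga
Dll4: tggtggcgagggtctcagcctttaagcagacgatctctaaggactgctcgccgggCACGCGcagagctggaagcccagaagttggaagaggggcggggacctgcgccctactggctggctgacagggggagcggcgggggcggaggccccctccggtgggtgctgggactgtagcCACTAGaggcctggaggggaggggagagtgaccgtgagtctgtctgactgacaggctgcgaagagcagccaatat
RefSeq gives Dll1 another start, whose 250 bases (chr17:15375824-15376073) hold neither CACGCG nor CACNAG and are not printed. The Dll1 stretch shown holds CACGCG at 68 bases before the start, and the Dll4 stretch holds CACGCG at 195 and CACTAG at 75 bases before the start. The stretch shown lies in an annotated exon of the opposite-strand A930024N18Rik, and 31 bases of the Dll4 stretch lie in exons of the noncoding Gm14207.

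Such stretches were given for 8 of the 10 members, in 9 windows of 250 bases, and none was given for Hes1 or Hey1. CACGCG was found in 4 of the 9 windows (Dll4, Jag1, Notch2 and 1 of the 2 of Dll1) and in 7.6% of 32851 windows of all genes. The 9 windows held 56.0% to 87.2% G or C, against a median of 52.4% over all windows. The shares given here were not matched for this, so they show no enrichment. CACNAG was found in 4 of the 9 and in 36.7% of all windows, CACGTG in 0 of the 9 and in 6.0%, and the Rbpj core TGGGAA in 0 of the 9 and in 21.6%. The 4 genes with CACGCG include 1 that was called lower and the 1 member with a positive fold change. A match is a description of the letters, and its absence from a window says only that they are not in those bases.

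The target genes were examined next. Hes1, a repressor that keeps progenitor cells undifferentiated in many tissues, counted 31.7, 46.3 and 37.2 CPM in WT and 33.7, 35.6 and 27.3 CPM in Adamts18-/- glands. It was lower in the Adamts18-/- gland of mice 2 and 3 and slightly higher in that of mouse 1, and its log2 fold change of -0.25 ± 0.13 was not called (unadjusted edgeR p of 0.120). Without mouse 1 it was called lower, at -0.41 (unadjusted p of 0.0335). Mouse accounted for 45.5% of the variance of its log2 CPM, the smallest share among the 10 genes.

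Hey1, a repressor with known roles in vessels and smooth muscle (chromosome 3: 8663359 to 8667256, minus strand, GRCm38), differed most. It counted 34.3, 45.3 and 19.0 CPM in WT glands (mice 1, 2 and 3) and 23.8, 28.5 and 8.28 CPM in their Adamts18-/- glands, from 2395, 2780 and 1068 reads and 1246, 1730 and 509 reads. Both glands of mouse 3 had the fewest, so that the groups overlapped, and within the pairs the Adamts18-/- value was lower by 0.53, 0.67 and 1.19 on the log2 scale. The means were 32.9 ± 13.2 CPM in WT and 20.2 ± 10.6 CPM in Adamts18-/- glands (SD, n = 3). Hey1 was called lower, with a fold change of 0.578, a log2 fold change of -0.79 ± 0.15 and an unadjusted edgeR p of 0.00413. It was called with each mouse left out in turn, at -0.93 without mouse 1, -0.86 without mouse 2 and -0.59 without mouse 3, and without the mouse as a block its p was 0.23. By DESeq2 its adjusted p was 0.00857, against 0.115 for Dll1 and 0.198 for Jag2, and over all settings the adjusted p of Hey1 ranged from 0.00857 to 1.

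**Figure D2:**
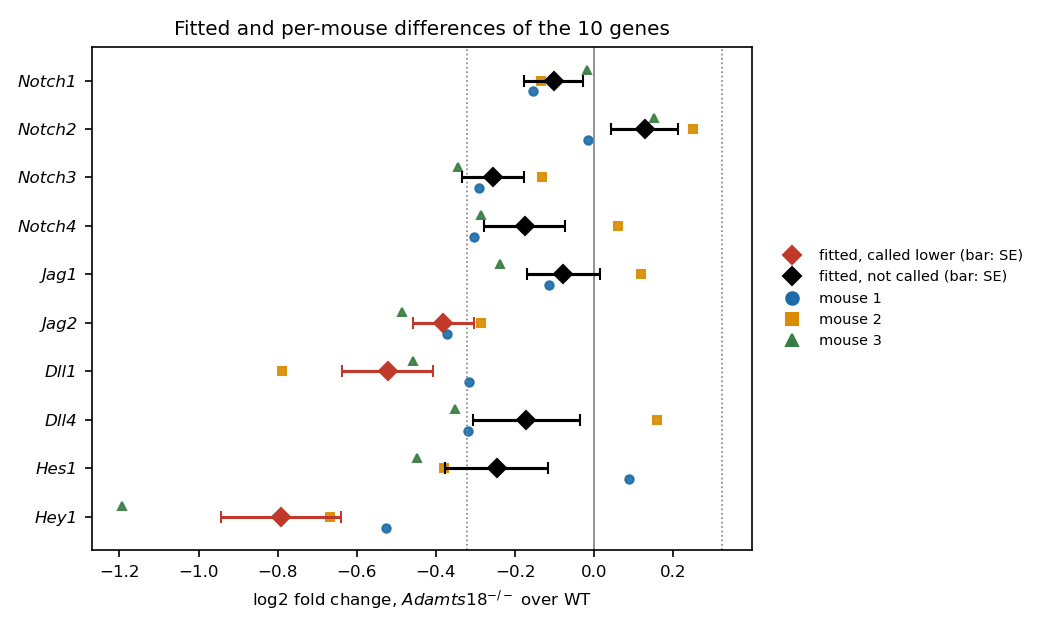
The horizontal axis gives the log2 fold change of Adamts18-/- over WT for each of the 10 genes; diamonds are the edgeR fit with its SE, circles, squares and triangles are the differences within mice 1, 2 and 3, and dotted lines mark a fold change of 0.8 and its reciprocal. Jag2, Dll1 and Hey1 lie left of the lower line, and Notch2 is the 1 gene right of 0 with this scaling to all genes.

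Altogether, 3 of the 10 genes were called lower at a fold change under 0.8 with an unadjusted p under 0.05, which 1.84% of the 17345 genes tested met. Without mouse 3, whose glands stood apart, Dll1 and Hey1 were called. The receptors gave 0 of 4, the ligands 2 of 4 and the targets 1 of 2. None was called higher, as were 1.17% of all genes. The log2 fold change was negative for 9 of the 10 (for 2 with the libraries scaled to pan-epithelial or to myoepithelial genes, and for 7 with scaling to endothelial genes), with a median of -0.21 against 0.001 over all genes tested. The medians within mice 1, 2 and 3 were -0.30, -0.13 and -0.35. Notch1, Notch3, Jag2, Dll1 and Hey1, 5 of 10, were lower in all 3 mice, as were 12.7% of all genes, and 0 were higher in all 3 mice, as were 10.8%. WT and Adamts18-/- values overlapped for all 10 members, while 4.94% of all genes had groups that did not overlap.

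After adjustment over all genes, each of the 10 members had an adjusted p of 0.987 in edgeR. By that measure 0 genes of the table were under 0.05, a share of 0%, although 670 had an unadjusted p under 0.05. limma-voom found 0 genes under an adjusted p of 0.05 as well, DESeq2 found 71, and edgeR without mouse 3 found 268. Hey1 was under 0.05 in both of the latter, with an adjusted p of 0.00857 in DESeq2 and 0.0472 in edgeR without mouse 3. With the myoepithelial scaling 8907 genes were under 0.05 in edgeR. Among them were Notch2 and Jag1, both higher, with an adjusted p of 0.0366 and 0.0439. The pan-epithelial scaling gave 381 genes, and the lowest adjusted p of a member was 0.328. In none of these fits were Jag2 or Dll1 under an adjusted p of 0.05, so their calls, where made, rest on unadjusted p-values. Without mouse 3 Jag2 was not called.

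The mouse set more of the spread than the genotype did. Over the 10 members it accounted for a median of 75.5% of the variance of log2 CPM, and the genotype for 18.8%, against 67.3% and 5.98% over all genes tested. The genotype share was 28.1% for Hes1, 26.2% for Hey1, 25.7% for Notch2, 22.2% for Dll1, 21.3% for Notch3 and 16.4% for Jag2, and 8.79% or less for Notch1, Notch4, Jag1 and Dll4. Hes1 and Notch2 thus had large genotype shares without a call.

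Marker genes of the cell types in the gland were set beside these results. The 10 myoepithelial genes summed to 1130, 1960 and 1130 CPM in WT glands (mice 1, 2 and 3) and to 912, 1400 and 740 CPM in the Adamts18-/- glands. The sum was thus highest in both glands of mouse 2 and lower in the Adamts18-/- gland of each pair. Notch1, Notch3, Jag2, Dll1 and Hey1, the members that were lower in every mouse, were also highest in both glands of mouse 2. The endothelial and pericyte sums were highest in both glands of mouse 2 as well. That order of the mice was thus not particular to the myoepithelial genes. Of the 10 myoepithelial genes 8 were called lower, Krt14, Acta2, Myh11, Trp63, Oxtr, Cnn1, Mylk and Krt17, at log2 fold changes of -0.63 to -0.34. The median of the list was -0.49. Within the list 7 of 10 were lower in all 3 mice. The defining genes Krt5 and Krt14 were not among them. In mouse 1 both were slightly higher in the Adamts18-/- gland, by 0.14 and 0.02 on the log2 scale. Krt5 was not called, and neither gene was absent from any library. The part of the myoepithelial transcripts in the lower Jag2, Dll1 and Hey1 was not tested.

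The 24 pan-epithelial genes summed to 1840, 2250 and 2680 CPM in WT and 1770, 1330 and 1860 CPM in Adamts18-/- glands. Of these 7 of 24 were called lower (Krt8, Krt18, Krt19, Krt7, Spint1, St14 and Prom1), and the median of the list was -0.37. The 8 hormone-sensing luminal genes summed to 600 to 781 CPM in WT and 428 to 523 CPM in Adamts18-/- glands, with 4 of 8 called lower (Prlr, Foxa1, Cited1 and Wnt4). Of the 9 secretory luminal genes that were tested, 1 was called lower (Elf5). On the log2 scale the pan-epithelial sum differed by -0.06, -0.76 and -0.53 in mice 1, 2 and 3, the hormone-sensing sum by -0.26, -0.49 and -0.64, the secretory sum by 0.16, -1.09 and -0.66 and the myoepithelial sum by -0.31, -0.49 and -0.61. Hes1 differed by 0.09, -0.38 and -0.45, so that like all 4 sums it was least negative in mouse 1.

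The 16 endothelial genes summed to 1690, 1880 and 1180 CPM in WT and 1440, 1910 and 984 CPM in Adamts18-/- glands, and the 7 pericyte genes to 778, 788 and 484 CPM and 692, 872 and 406 CPM. None of the 16 endothelial genes was called, though all 16 fold changes were negative, with a median of -0.17, and none of the 7 pericyte genes was called. Notch4, Dll4 and Jag1 shared the signs of these sums across mice, lower in the Adamts18-/- glands of mice 1 and 3 and higher in that of mouse 2. The adipocyte sum (-0.15, 0.15 and -0.32 on the log2 scale) and the Schwann cell sum (-0.32, 0.37 and -0.66) had the same signs, so the pattern was not particular to vessels. In mouse 2 the endothelial sum differed by 0.03, with a median of -0.024 over its genes, and the pericyte sum by 0.15. Hey1 was lower in all 3 mice.

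**Figure D3:**
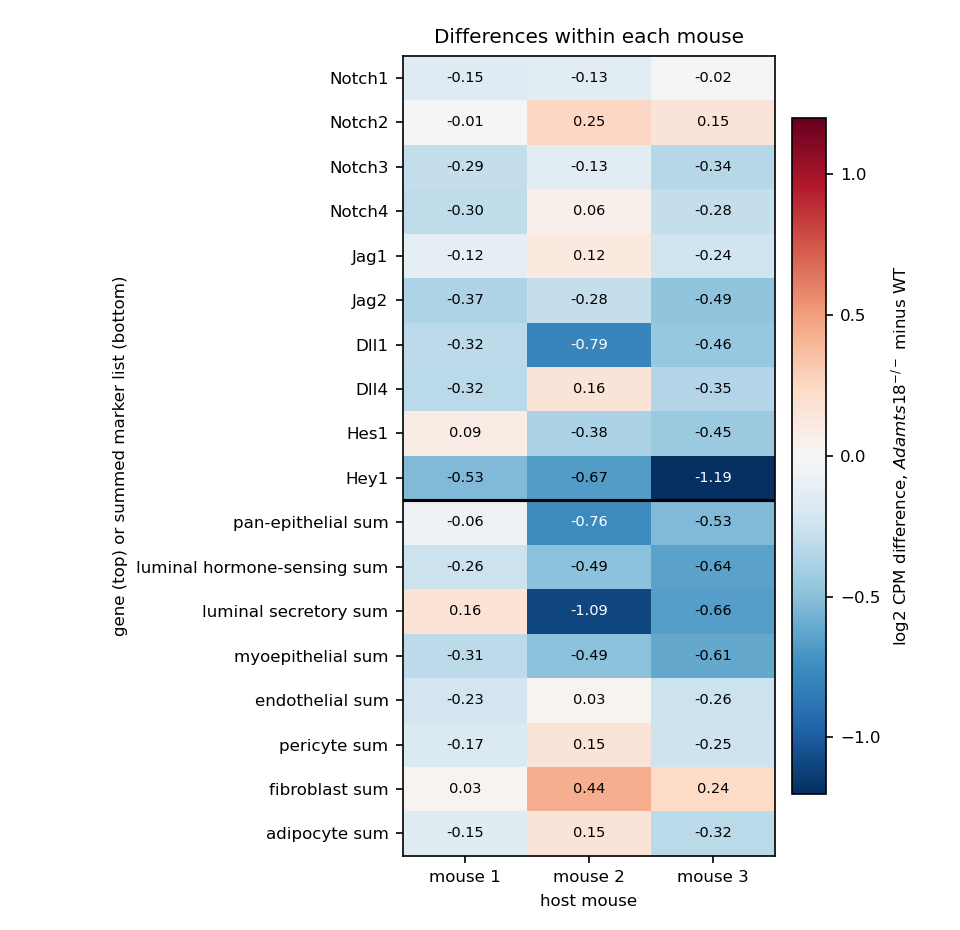
Rows are the 10 genes and, under the line, the summed CPM of 8 marker lists, columns are the 3 host mice, and color and number give the log2 CPM difference of the Adamts18-/- from the WT gland. Notch1, Notch3, Jag2, Dll1, Hey1 and the pan-epithelial, hormone-sensing and myoepithelial sums are negative in all 3 columns. Notch4, Jag1, Dll4 and the endothelial, pericyte and adipocyte sums are negative in mice 1 and 3 and positive in mouse 2.

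When the libraries were scaled to the 24 pan-epithelial genes instead of all genes, the median fold change of all genes moved to 0.45 on the log2 scale and the members' median to 0.24, below it. No member was called then: Hey1 had a log2 fold change of -0.35 (unadjusted edgeR p of 0.242), Dll1 of -0.07 (unadjusted p of 0.802) and Jag2 of 0.07 (unadjusted p of 0.828). Scaling to the 10 myoepithelial genes, an alternative chosen after seeing the data, gave -0.33 for Hey1 (unadjusted p of 0.059), -0.05 for Dll1 (unadjusted p of 0.723) and 0.09 for Jag2 (unadjusted p of 0.551), with a median over all genes of 0.47. Under that scaling Notch1, Notch2 and Jag1 were called higher, by 0.37, 0.60 and 0.39 on the log2 scale, of which Notch1 and Jag1 were under the shift of all genes. With it 11059 of the 17345 genes tested had an unadjusted edgeR p under 0.05, so these calls do not set the members apart from other genes. Scaling to the 16 endothelial genes, chosen likewise, kept Hey1 called at -0.64 (unadjusted p of 0.00717) and moved Dll1 to -0.37 (unadjusted p of 0.0791) and Jag2 to -0.23 (unadjusted p of 0.0894), with a median over all genes of 0.15. Each scaling to a list whose genes were lower moves all genes up by about the same amount, so the smaller differences of Jag2 and Dll1 follow from it and are no test of a cause. Hey1 and Dll1 were the members whose fold change was negative with each of these 4 scalings.

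**Figure D4:**
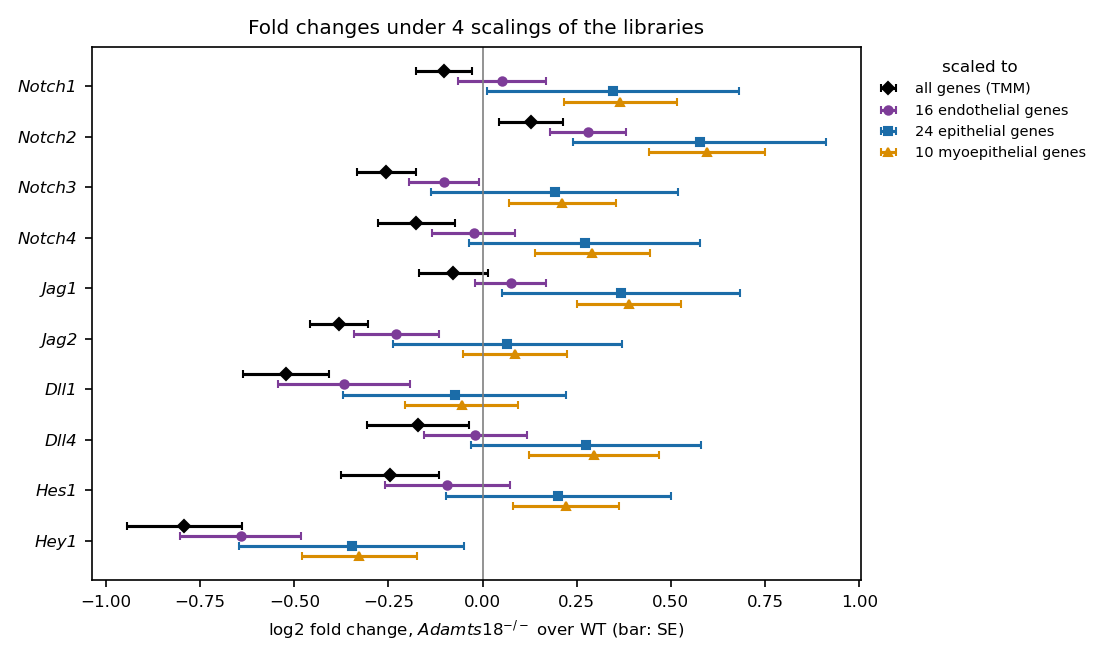
The horizontal axis gives the log2 fold change of Adamts18-/- over WT with its SE from the edgeR fit, for each of the 10 genes with the libraries scaled to all genes or to the summed counts of 16 endothelial, 24 pan-epithelial or 10 myoepithelial genes. Dll1 and Hey1 are left of 0 with each scaling, Notch2 is right of 0 with each, and Jag2 crosses 0 with the epithelial and myoepithelial scalings.

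The other genes of the pathway were taken from 7 lists by role, 66 genes in all, of which 62 had enough reads to be tested and Dll3, Rbpjl, Hes3 and Hes5 did not. Of the 62, 1 was called lower and 1 higher, against the 1.84% and 1.17% of all genes given above, and the median log2 fold change was -0.02. Lower values in all 3 mice were found for 10 of the 62 and higher values for 5, against 12.7% and 10.8%. The counts of calls among these 62 genes were thus near the background.

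Tle2, a Groucho-type corepressor that works with Hes and Hey proteins, was the gene called lower. It counted 28.1, 32.2 and 28.5 CPM in WT and 24.7, 22.8 and 23.2 CPM in Adamts18-/- glands, and the groups did not overlap. Its log2 fold change was -0.33 ± 0.09 (unadjusted edgeR p of 0.0199, adjusted p = 0.987). Of the other 10 corepressors none was called, among them Ctbp1, the most abundant of the list per length, at 0.08 ± 0.08 (unadjusted p of 0.336).

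Cntn1, a cell adhesion protein described as a non-canonical Notch ligand and mainly known from nerve, was the gene called higher. It counted 8.14, 7.21 and 5.63 CPM in WT and 9.03, 14.8 and 8.79 CPM in Adamts18-/- glands, without overlap, a log2 fold change of 0.61 ± 0.20 (unadjusted edgeR p of 0.0326). It was not called without mouse 2. The sum of 6 Schwann cell genes was 1150, 831 and 801 CPM in WT and 924, 1070 and 507 CPM in Adamts18-/- glands, higher in mouse 2 only. Mfap5, a microfibril protein and the most abundant of the other ligands per length, had 145 ± 19.0 CPM in WT and 156 ± 17.0 CPM in Adamts18-/- glands (SD, n = 3).

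The Deltex protein Dtx3, of the 14 ubiquitin ligases and trafficking genes the most abundant per length, counted 129, 146 and 141 CPM in WT and 118, 123 and 118 CPM in Adamts18-/- glands, without overlap. Its log2 fold change of -0.21 ± 0.07 had an unadjusted edgeR p of 0.0348 but missed the fold threshold. No other gene of that list had a p under 0.05.

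The genes that process the receptors or carry the signal in the nucleus were not called. The 5 glycosyltransferases, which modify the receptors and tune their choice of ligand, had a median log2 fold change of 0.02, and the most abundant of them per length, Mfng, had a log2 fold change of 0.02 ± 0.07 (unadjusted edgeR p of 0.785). Of the 10 genes for cleavage of the receptor, Adam10, the protease of the first cut after ligand binding, had 183 ± 13.9 and 171 ± 15.3 CPM (-0.11 ± 0.08, unadjusted edgeR p of 0.241). Of the 9 nuclear genes tested, Kat2b, an acetyltransferase, had 84.7 ± 6.22 and 87.5 ± 13.8 CPM. Rbpj, the DNA-binding partner of all 4 receptors, which was named after its values were seen, had 166 ± 26.3 and 167 ± 31.7 CPM, a log2 fold change of 0.01 ± 0.12 (unadjusted p of 0.949).

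The 7 other target genes tested had a median log2 fold change of -0.03 and none was called. Ccnd1, which encodes cyclin D1 and is the most abundant of them per length, had 133 ± 37.0 CPM in WT and 116 ± 26.5 CPM in Adamts18-/- glands (-0.19 ± 0.09, unadjusted edgeR p of 0.107), lower in all 3 mice. Hey2 and Heyl, the relatives of Hey1, were also looked at after their values were seen. Hey2 had 3.02 ± 0.61 and 2.48 ± 1.52 CPM, a log2 fold change of -0.42 ± 0.29 (unadjusted p of 0.204), and Heyl had 10.3 ± 2.55 and 10.2 ± 3.16 CPM (-0.03 ± 0.12, unadjusted p of 0.79). Their differences from Hey1 were not tested.

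**Figure D5:**
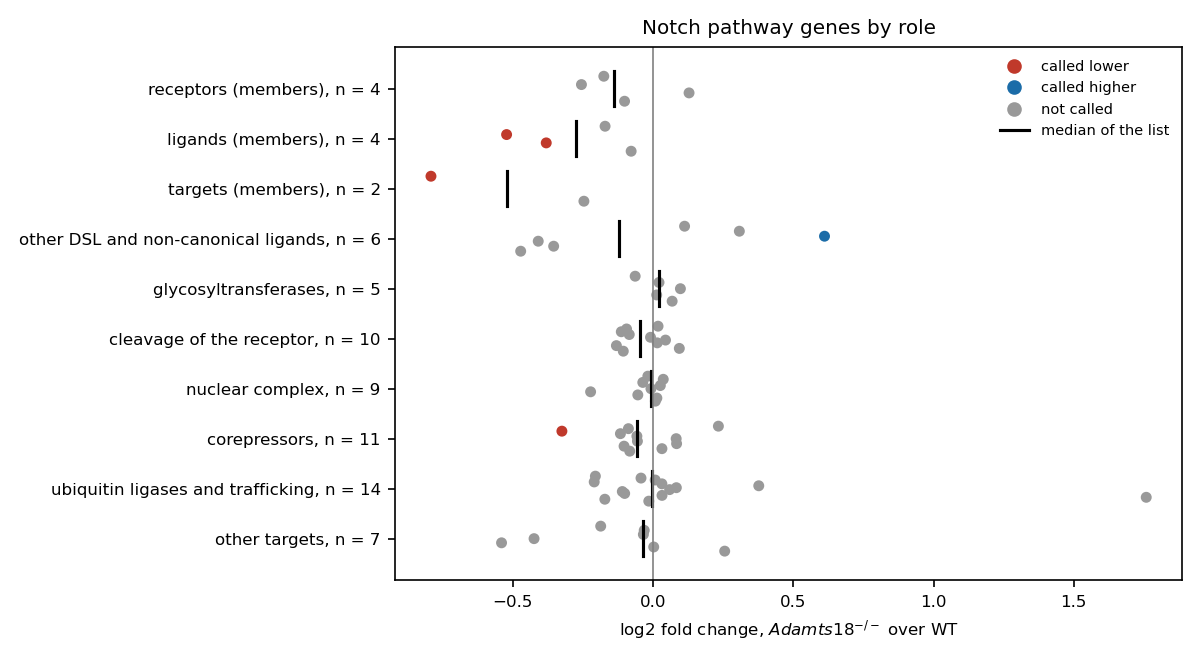
Each point is 1 gene, placed by its log2 fold change of Adamts18-/- over WT on the horizontal axis and by its role in the pathway on the vertical axis, and black bars are list medians. The 3 member genes called lower and Tle2 lie left of 0, Cntn1 is the 1 gene called higher, and the point farthest right is Neurl1a, which was not called.

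The most extreme fitted difference in these lists belonged to Neurl1a, a ubiquitin ligase for Notch ligands, chosen after its values were seen. It counted 1.51, 1.81 and 3.93 CPM in WT and 10.3, 11.5 and 3.03 CPM in Adamts18-/- glands, higher in mice 1 and 2 and lower in mouse 3 (unadjusted edgeR p of 0.0707). The sum of 8 skeletal muscle genes ran with it, at 288, 846 and 2810 CPM in WT and 11100, 10900 and 1900 CPM in Adamts18-/- glands. Dtx1, likewise chosen, counted 2.04, 2.87 and 3.23 CPM in WT and 1.15, 1.90 and 20.4 CPM in Adamts18-/- glands. Its high value was in the library with the highest sum of 6 B cell genes, 685 CPM in the Adamts18-/- gland of mouse 3 against 10.3 to 143 CPM in the others. The part of muscle and B cells in these values was not tested.

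For each member, the genes with the most similar profile over the 6 libraries were looked up by Pearson's r of log2 CPM among 14709 genes with a mean of at least 1 CPM. The 6 libraries share 3 hosts and each value is among the highest of all candidates, so they are descriptions only. The closest genes to Dll1 were Foxo3 (r = 0.9964), Rai14 (r = 0.9931) and Mylk (r = 0.9922), the last of which is in the myoepithelial list. Those closest to Hes1 were Smpdl3b (r = 0.9958), Krt14 (r = 0.9904) and Csn2 (r = 0.9847), with Krt14 in the myoepithelial and Csn2 in the secretory luminal list. Those closest to Notch4 were Lrrc8a (r = 0.9974), Fgd5 (r = 0.9971) and Eng (r = 0.995), the last of which is in the endothelial list.

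Hey1 was closest to Mapkbp1 (r = 0.9968), Wbp2 (r = 0.9967) and Ptprz1 (r = 0.9959), and Jag2 to Efnb1 (r = 0.9984), Sdk2 (r = 0.9984) and X99384 (r = 0.9951), none of them in a marker list. Notch3 was closest to Zc3h7b (r = 0.9993), Bag6 and Hoxd3, Jag1 to Btd (r = 0.9989), Rab11fip3 and Dmwd, and Dll4 to Ndel1 (r = 0.9955), Arl13b and Tmem110. Notch1 was closest to Pdcd6ip (r = 0.9923), Las1l and Med13l. Notch2 had the lowest top value, with Snap29 (r = 0.9721), Vash1 and Clec4e.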

How the data were processed

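RNA of 6 libraries, 3 WT and 3 Adamts18-/- grafts, was sequenced by the authors as single-end reads of 85 bases, and they deposited raw counts per gene symbol, 1 column per gland, without normalization. The submitters' processing notes name bcl2fastq, TopHat2 2.0.11, featureCounts 1.6.2, edgeR and the build mm9. Annotation and strand setting are not given in the sources used here. Samples were grouped from the genotype in the labels, and 0 columns of other samples were found. Positions and exon lengths are those of GENCODE M21 (GRCm38), since the counts carry no coordinates.

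Adamts18-/- glands were compared with WT glands by the quasi-likelihood test of edgeR 4.0.16 under R 4.3.3, with TMM scaling, filterByExpr and the mouse as a block. The code was checked on simulated data. p-values were adjusted by Benjamini-Hochberg over 17345 genes, with 2 residual degrees of freedom per gene before moderation. CPM used TMM factors, and log2 CPM a prior count of 2. Contralateral glands share a host, as the labels' mouse numbers and the study's text give, and deviated together across genes (r = 0.512, 0.505 and 0.639). Pairs of libraries differed well beyond counting noise, with a chi-square of 42.4 to 437 per degree of freedom. The limit of 3 counts covers counting error only.

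The members, the gene lists and the rule for naming genes were chosen with earlier results of these data known. Named were all members, pathway genes with an unadjusted p under 0.05, the most abundant gene per length of each pathway list, marker genes with an unadjusted p under 0.05, the 3 most similar genes of each member, and Adamts18. Wherever a gene was named after its values were seen, this is said beside it. Alternatives were no block, DESeq2 1.42.0, voom of limma 3.58.1, other scalings, other filters, other thresholds, and each mouse left out. Scaling to myoepithelial or endothelial genes was added after the data were seen.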

Additional observations from a re-analysis of the deposited data

How the results depend on the processing

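The 3 members called lower were called as 3 with DESeq2, limma-voom, RLE, upper quartile and library size scaling, and either other filter. Over an absolute log2 fold change of 0.5 there were 2 (without Jag2) and without a fold threshold 4 (with Notch3). With the mice left out in turn 2 to 4 were called: Jag2 was lost without mouse 3 (-0.32) and Hes1 was gained without mouse 1. Without the mouse as a block 0 were called (Jag2 -0.36, Dll1 -0.59 and Hey1 -0.70, unadjusted edgeR p of 0.369, 0.213 and 0.23), by adjusted p 0, and with scaling to pan-epithelial, myoepithelial and endothelial genes 0, 0 and 1, while 3 were called higher with the myoepithelial scaling. With the myoepithelial scaling 11059 of the 17345 genes tested had an unadjusted edgeR p under 0.05. The cause of these changes in the calls was not tested.

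The members' median of -0.21 was 0.24, 0.26 and -0.059 under these 3 scalings, which moved the median of all genes to 0.45, 0.47 and 0.15. Signs were reversed with the pan-epithelial scaling for Notch1 (0.35), Notch3 (0.19), Notch4 (0.27), Jag1 (0.37), Jag2 (0.066), Dll4 (0.27) and Hes1 (0.20), with the myoepithelial scaling for Notch1 (0.37), Notch3 (0.21), Notch4 (0.29), Jag1 (0.39), Jag2 (0.086), Dll4 (0.30) and Hes1 (0.22), with the endothelial scaling for Notch1 (0.051) and Jag1 (0.074), and without mouse 3 for Jag1, which ranged from -0.177 to 0.01 with a mouse left out.

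Of the other pathway genes, 1 was called lower, against 0 with the pan-epithelial scaling, an absolute log2 fold change over 0.5 or adjusted p, 2 without a fold threshold, and 1 to 2 with a mouse left out. Of them 1 was called higher, against 2 with DESeq2, limma-voom or no filter, 5 with the pan-epithelial scaling, 0 by adjusted p, and 0 to 3 with a mouse left out (0 without mouse 2, 3 without mouse 3). Over all genes, 319 were called lower, against 125 without the block, 31 with the pan-epithelial scaling, 189 over 0.5, 0 by adjusted p and 214 to 481 with a mouse left out. The 203 called higher became 340 with DESeq2, 345 with limma-voom, 352 without a filter, 2212 with the pan-epithelial scaling, 0 by adjusted p and 182 to 581 with a mouse left out.

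Members' adjusted p ranged from 0.00857 (Hey1, DESeq2) to 1 over these settings. The lowest member count was 509 reads (Hey1). The comparison has 3 pairs, and genotype is tied to side.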
